A study of Mus musculus with 4 samples.

Results

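The core circadian loop of mouse mammary tumours is described here through its 10 genes, which were listed by symbol for their known roles, with earlier results of these data known: the activators Arntl, Arntl2, Clock and Npas2, and the repressors Per1, Per2, Per3, Cry1, Cry2 and Ciart. All 10 were present among the 23238 gene symbols counted, and all 10 had enough reads to be among the 14801 genes tested. Transcripts were measured by RNA sequencing in tumours of female FVB mice aged 14 weeks, of which 2 were labelled Nr1d1-/-;PyMT and 2 were labelled Nr1d1+/+;PyMT. All 4 carried PyMT, the polyoma virus middle T oncogene that drives mammary carcinoma, so the tumours of the Nr1d1+/+ label are no normal tissue. The sources used here do not give the promoter that drives PyMT, the exons that the Nr1d1 null allele lacks, the hour at which tumours were taken or whether the replicates came from separate animals. A p-value here thus reflects how far these libraries scatter, and that scatter may be technical.

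The circadian clock is a transcription loop that runs in most cells, mammary epithelium included. BMAL1 (encoded by Arntl) pairs with CLOCK or NPAS2 and binds the E-box, whose letters are CACGTG, to switch on the Per, Cry, Ciart and Nr1d1 genes. PER and CRY proteins then return to the nucleus and inhibit that pair, and CIART, also called CHRONO, is a further repressor of it. REV-ERBα, the product of Nr1d1, closes a second loop: it competes with ROR receptors for elements with the core AGGTCA and represses Arntl. The levels of most of these transcripts change with the hour of day.

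The promoters of 4 members are shown because they carry the motifs of these loops. Each is 300 bases from RefSeq (GRCm38.p6, the assembly that mm10 names), from 250 bases before the transcription start to 50 after, read 5′ to 3′ on the strand of the gene. The Arntl promoter is chr7:113207261-113207560 on the plus strand, that of Cry1 is chr10:85185005-85185304 on the minus strand, that of Per1 is chr11:69098699-69098998 on the plus strand and that of Ciart is chr3:95882179-95882478 on the minus strand. Capitals mark CACGTG (E-box), CACGTT (a non-canonical E-box) and AGGTCA, each searched on both strands, so that a match on the other strand reads AACGTG or TGACCT.
Arntl: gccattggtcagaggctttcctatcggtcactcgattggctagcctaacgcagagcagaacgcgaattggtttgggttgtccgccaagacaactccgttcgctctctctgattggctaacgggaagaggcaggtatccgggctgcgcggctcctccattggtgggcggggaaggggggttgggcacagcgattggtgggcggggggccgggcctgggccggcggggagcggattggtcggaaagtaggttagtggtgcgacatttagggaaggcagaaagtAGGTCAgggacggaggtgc
Cry1: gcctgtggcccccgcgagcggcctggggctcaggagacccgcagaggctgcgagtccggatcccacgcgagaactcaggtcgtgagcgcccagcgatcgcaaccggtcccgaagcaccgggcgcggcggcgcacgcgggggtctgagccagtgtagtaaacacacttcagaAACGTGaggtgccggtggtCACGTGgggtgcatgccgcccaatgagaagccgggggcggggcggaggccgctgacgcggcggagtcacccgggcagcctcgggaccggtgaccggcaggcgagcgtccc
Per1: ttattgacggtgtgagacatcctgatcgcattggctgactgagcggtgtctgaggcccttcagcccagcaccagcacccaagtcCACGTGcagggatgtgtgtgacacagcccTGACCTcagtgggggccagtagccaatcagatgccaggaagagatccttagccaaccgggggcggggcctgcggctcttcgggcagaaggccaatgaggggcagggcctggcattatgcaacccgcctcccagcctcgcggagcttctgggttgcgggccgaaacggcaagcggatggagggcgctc
Ciart: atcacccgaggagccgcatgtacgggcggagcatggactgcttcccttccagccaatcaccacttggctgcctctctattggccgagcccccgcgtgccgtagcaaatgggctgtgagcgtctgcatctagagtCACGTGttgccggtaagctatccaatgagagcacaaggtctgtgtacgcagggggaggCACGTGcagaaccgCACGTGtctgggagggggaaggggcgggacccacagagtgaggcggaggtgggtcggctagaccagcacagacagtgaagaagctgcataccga

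The promoter of Ciart held 3 E-boxes, at positions -116, -58 and -44 from the transcription start. Of 32851 RefSeq promoters of this length, 7.15% held an E-box and 0.0883% held 3 or more. Cry1 had an E-box at -60 and a non-canonical E-box at -79, and Per1 had an E-box at -166 and an AGGTCA core at -137. The later of the 2 Arntl starts had an AGGTCA core at position 32 after the start, and 16.3% of all promoters held that core. Cry2 had a non-canonical E-box at -166, and 4.68% of all promoters held that motif. In all, 13 promoters of 9 of the 10 members were searched. No promoter of Per2 was given, so Per2 was not searched for any motif. Among the members searched, 3 had an E-box and 3 had the AGGTCA core, the third of which was Clock at -119 of its most downstream start. Some members were searched in several promoters, whereas the shares of all promoters are of single promoters. The core of the cAMP response element, TGACG, was found in Per1 (-246, and -132 in its other promoter), in Cry1 (-8) and in Cry2 (-209), and in 20.8% of all promoters. No pair of these matches overlapped. A match describes letters in the reference and was not tested for binding.

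**Figure D1:**
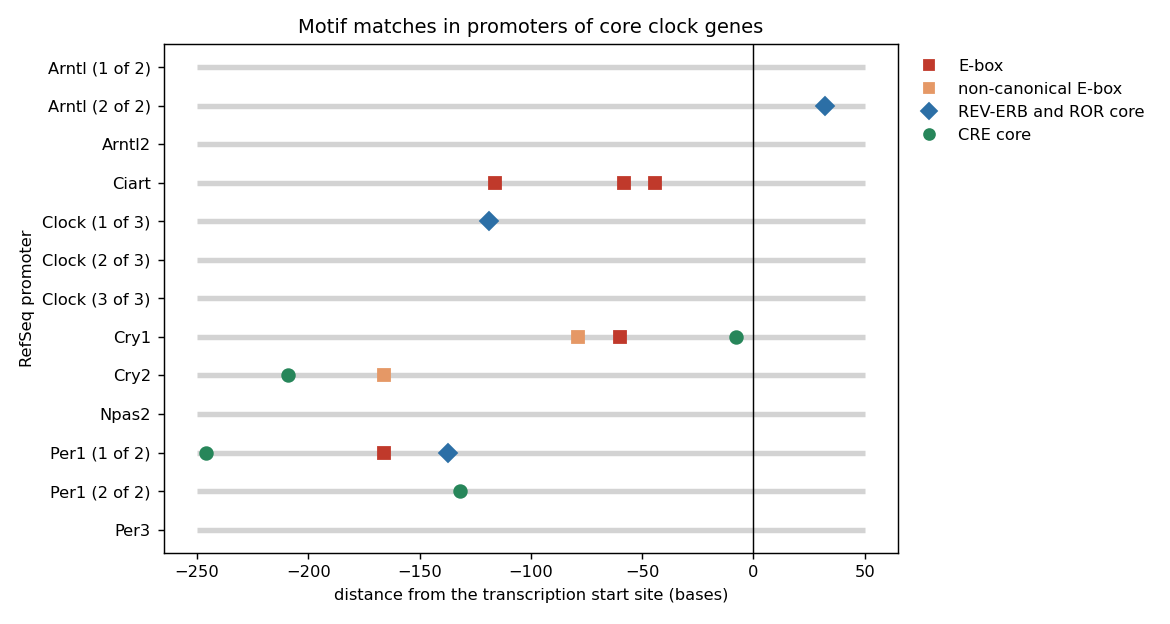
Positions of 4 motifs in 13 RefSeq promoters of 9 core clock genes; the x axis is the distance from the transcription start site in bases, each grey line is a promoter and each symbol a match on either strand. Ciart has 3 E-boxes between -116 and -44, and the Arntl match lies after the start. Per2 is not shown, since no promoter of it was given.

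Library facts that touch these genes are as follows. Total counts were 15905404 and 18017279 in the libraries labelled Nr1d1-/- and 19116279 and 17768820 in those labelled Nr1d1+/+. Nr1d1 itself had 10.6 and 12.8 CPM (counts scaled to the normalised library size) in the libraries labelled Nr1d1-/-, against 20.2 and 10.3 CPM in those labelled Nr1d1+/+ (log2 fold -0.37, SE 0.35, edgeR adjusted p = 0.436). The groups overlapped, so that the transcript count did not check the genotype labels and directions rest on the labels. Rn45s, the ribosomal RNA precursor, took 4.36% and 7.64% of counts against 2.94% and 3.39%, which moves with the genotype label. None of the 10 epithelial markers was at 0 in all libraries. Marker genes of epithelium summed to 10820 and 9959 CPM against 7002 and 6001 CPM, although 4 of the 10 were called higher and 2 lower. Their median log2 fold was 0.42, but -0.10 with GC and length trends removed (2 higher and 1 lower) and 0.04 when scaled by library size alone. Markers of red blood cells summed to 2019 and 2197 CPM against 455 and 582 CPM, and markers of adipocytes to 195 and 130 CPM against 42.3 and 77.8 CPM. Endothelial markers summed to 111 and 125 CPM against 57.3 and 70.8 CPM, macrophage markers to 477 and 623 CPM against 340 and 426 CPM, lymphocyte markers to 22.2 and 19.9 CPM against 12.2 and 14.4 CPM, and fibroblast markers to 1236 and 1489 CPM against 864 and 1471 CPM. The 14 skeletal muscle markers summed to 926 CPM in Nr1d1-/- replicate 1 and to 9.99 CPM in Nr1d1-/- replicate 2, against 7.62 and 5.03 CPM in the libraries labelled Nr1d1+/+. The part of these differences in the results below was not tested beyond the fits without each library. In bulk tumour RNA, fewer cells of a type and less RNA per cell cannot be told apart.

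Per2 was the only member called between the genotype labels, and it was lower in the libraries labelled Nr1d1-/-. A gene was called where the quasi-likelihood test of edgeR gave a Benjamini-Hochberg adjusted p under 0.05 over all 14801 genes. By this rule 1 of 10 members was called, while 33.9% of all tested genes were. None of the 10 was called higher, where 16.5% of all tested genes were, and edgeR gave 0 higher and 1 lower at an unadjusted p under 0.05. DESeq2 and limma-voom each called 0 members higher and 1 lower, beside 17% and 15.7% of all genes higher and 17% and 16.4% lower. The share of all tested genes called lower was 17.3% by edgeR, 29.8% with library size as the only scaling, 10.7% with the trends of counts on GC content and length removed and 18.3% with a replicate block. Leaving out the first or the second library labelled Nr1d1-/- gave 13.2% and 15.6%, and leaving out the first or the second labelled Nr1d1+/+ gave 11.8% and 7.62%. Requiring an absolute log2 fold of at least 1 left 11.6%. The median log2 fold of the 10 was -0.12, and that of all tested genes was -0.01. Values of the genotype labels did not overlap for 3 of 10 members (Per2 and Per3 lower, Arntl higher), against 70.5% of all tested genes (36.2% lower and 34.4% higher). The difference between genotype means exceeded the difference between replicates of either label for 2 of 10 members, Per2 and Per3, against 59.1% of all tested genes.

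**Figure D2:**
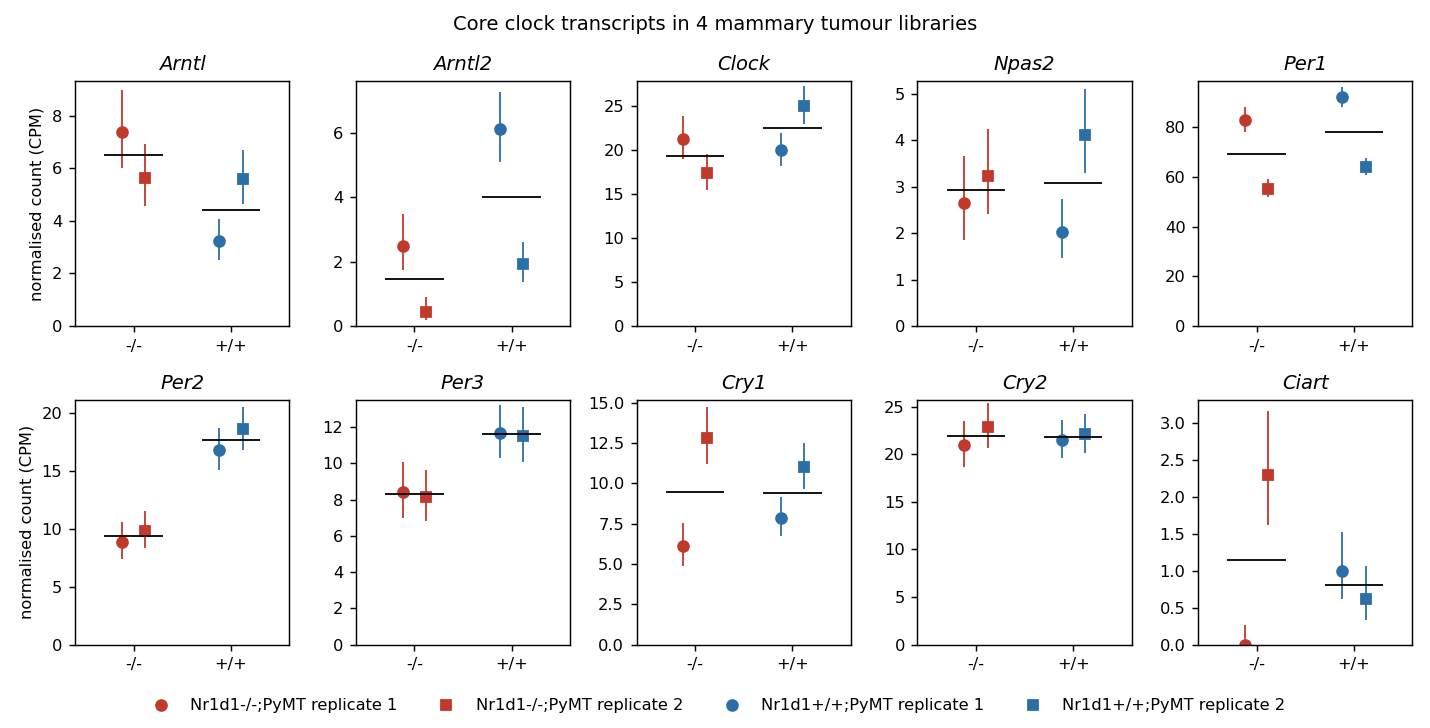
Normalised count (CPM) of each core clock gene in each library; points are libraries with exact 95% Poisson intervals of the count, which cover counting error only, and black lines are means of 2 libraries. Per2 and Per3 separate the labels with little spread. Each other member differs more between the replicates of either or both labels than between label means.

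Among the activators, Arntl encodes BMAL1, the partner that the loop cannot do without, and it lies on chromosome 7 from 113207465 to 113314126 (GRCm38, as all gene positions here). Arntl had 101 and 91 counts or 7.40 and 5.65 CPM in the libraries labelled Nr1d1-/-, and 68 and 117 counts or 3.22 and 5.6 CPM in those labelled Nr1d1+/+. The library labelled Nr1d1+/+ replicate 1 was low, while replicate 2 of both labels lay side by side and within counting error of each other. The log2 fold of 0.56 (SE 0.40, 95% interval -0.35 to 1.47) did not pass (edgeR adjusted p = 0.307). Leaving out Nr1d1+/+ replicate 1 gave 0.17 and leaving out Nr1d1+/+ replicate 2 gave 0.99 (edgeR adjusted p = 0.843 and 0.254).

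Arntl2 encodes BMAL2, a paralog of BMAL1 that can pair with CLOCK, and lies on chromosome 6 from 146796055 to 146833529. It had 2.49 and 0.434 CPM in the libraries labelled Nr1d1-/- and 6.10 and 1.92 CPM in those labelled Nr1d1+/+, from 34, 7, 129 and 40 counts in the same order. Replicate 1 was the higher library under both labels, by 5.74 times within Nr1d1-/- and by 3.19 times within Nr1d1+/+, and the labels overlapped. The log2 fold of -1.52 was the largest of the loop in size but had an SE of 0.78 and an interval from -3.29 to 0.26 (edgeR adjusted p = 0.164). Without Nr1d1-/- replicate 1 the log2 fold was -3.19, a value that rests on the 7 counts of Nr1d1-/- replicate 2 alone. Leaving out Nr1d1+/+ replicate 1 gave -0.50. The other fits without 1 library gave -2.14 without Nr1d1+/+ replicate 2 and -0.70 without Nr1d1-/- replicate 2.

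Within a library the balance of the paralogs can be read without any scaling between libraries. Trends of counts on GC content and length stay in such ratios, since the paralogs differ in both. Per kilobase of exon, Arntl2 stood at 0.445 and 0.102 times the level of Arntl in the libraries labelled Nr1d1-/-, against 2.51 and 0.452 times in those labelled Nr1d1+/+. Only in Nr1d1+/+ replicate 1 did Arntl2 exceed Arntl. With 2 libraries against 2, an exact permutation test cannot fall below a two-sided p of 1 in 3, so these ratios are given without a test.

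Clock and Npas2 encode the alternative partners of BMAL1. Clock, on chromosome 5 from 76209868 to 76304792, had 21.3 and 17.4 CPM in the libraries labelled Nr1d1-/- and 20 and 25.1 CPM in those labelled Nr1d1+/+, and the labels overlapped. Its log2 fold was -0.22 (SE 0.25, interval -0.78 to 0.34, edgeR adjusted p = 0.517). Clock has the longest transcript (9744 bases) and the lowest GC content (40.9%) of the loop, and with the trends of counts on GC content and transcript length removed from each library its log2 fold was 0.33 (edgeR adjusted p = 0.313). Npas2, on chromosome 1 from 39193731 to 39363236, had 2.64 and 3.23 CPM in the libraries labelled Nr1d1-/- and 2.03 and 4.12 CPM in those labelled Nr1d1+/+. Its Nr1d1-/- values lay between those of the Nr1d1+/+ label (log2 fold -0.06, SE 0.49, interval -1.17 to 1.05, edgeR adjusted p = 0.936). Per kilobase, Npas2 stood at 0.354 and 0.53 times Clock in the libraries labelled Nr1d1-/-, and at 0.291 and 0.47 times Clock in those labelled Nr1d1+/+.

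The 3 Period genes encode the partners of the cryptochromes in repression, and they had lower means in the libraries labelled Nr1d1-/-, with only Per2 called. Per2 lies on chromosome 1 from 91415982 to 91459324. It had 121 and 158 counts or 8.87 and 9.80 CPM in the libraries labelled Nr1d1-/-, and 356 and 388 counts or 16.8 and 18.6 CPM in those labelled Nr1d1+/+. Both libraries labelled Nr1d1-/- lay below both labelled Nr1d1+/+, and replicates differed by 1.11 and 1.10 times. Per2 thus averaged 9.34 ± 0.66 CPM in the libraries labelled Nr1d1-/- and 17.7 ± 1.23 CPM in those labelled Nr1d1+/+ (SD, n = 2 each), a log2 fold of -0.92 (SE 0.26, interval -1.52 to -0.32, edgeR adjusted p = 0.0271).

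The direction of Per2 held in each of 16 alternatives, with log2 folds from -1.30 to -0.81, and the call held in 12 of them. It did not pass with the GC and length trends removed (log2 fold -0.81, edgeR adjusted p = 0.0524). Nor did it pass without Nr1d1+/+ replicate 1 (-1.03, edgeR adjusted p = 0.072), without Nr1d1+/+ replicate 2 (-0.87, edgeR adjusted p = 0.147) or without Nr1d1-/- replicate 1 (-0.85, edgeR adjusted p = 0.073), fits that each had fewer samples.

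Per3, on chromosome 4 from 151003652 to 151044665, is the Period gene that the loop can do without in mice. It had 8.43 and 8.13 CPM in the libraries labelled Nr1d1-/- and 11.7 and 11.5 CPM in those labelled Nr1d1+/+, from 115, 131, 247 and 241 counts in the same order. The labels did not overlap and replicates differed by at most 1.04 times, yet the log2 fold of -0.49 (SE 0.28, interval -1.13 to 0.15) did not pass (edgeR adjusted p = 0.21). With library size as the only scaling it was -0.87 and passed (edgeR adjusted p = 0.0421), a scaling that moved the median log2 fold of all tested genes to -0.38.

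Per1, on chromosome 11 from 69095217 to 69109960, is induced by glucocorticoids and cAMP. It had 83.0 and 55.2 CPM in the libraries labelled Nr1d1-/- and 92.1 and 64.0 CPM in those labelled Nr1d1+/+. Replicate 1 was higher under both labels, by 1.5 and 1.44 times, and the labels overlapped (log2 fold -0.18, SE 0.25, interval -0.76 to 0.40, edgeR adjusted p = 0.619). Leaving out Nr1d1+/+ replicate 1 turned the sign of Per1 (0.06), as did leaving out Nr1d1-/- replicate 2 (0.07). Per kilobase, Per2 stood at 0.103 and 0.171 times Per1 in the libraries labelled Nr1d1-/-, against 0.176 and 0.279 times in those labelled Nr1d1+/+. The labels did not overlap in this ratio, but 0.171 and 0.176 lay close together.

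**Figure D3:**
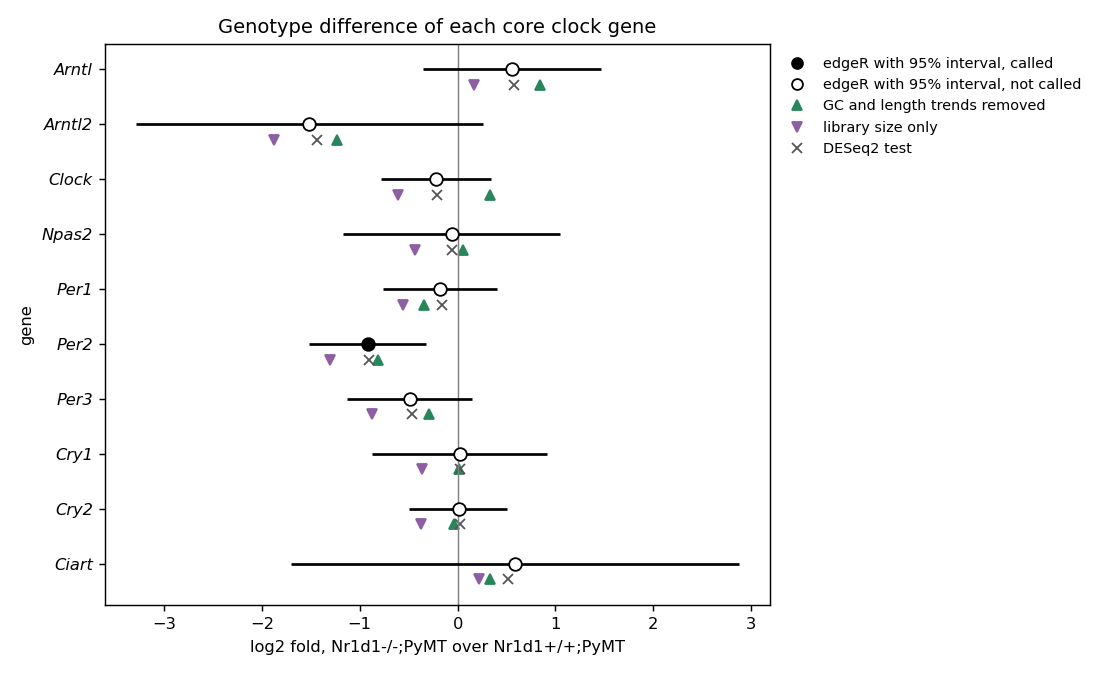
Log2 fold of each core clock gene in the libraries labelled Nr1d1-/-;PyMT over those labelled Nr1d1+/+;PyMT; circles are the edgeR fit with its 95% interval (filled where called) and the smaller symbols below each are 3 alternatives. Per2 is the only filled circle at -0.92, and the interval of Ciart runs from -1.70 to 2.88.

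The cryptochromes are direct repressors of CLOCK and BMAL1, and neither passed the test. Cry1, on chromosome 10 from 85131700 to 85185064, had 83 and 207 counts or 6.08 and 12.8 CPM in the libraries labelled Nr1d1-/-, and 166 and 230 counts or 7.85 and 11 CPM in those labelled Nr1d1+/+. Replicate 2 was the higher library under both labels, and the Nr1d1+/+ values lay within the range of the others. Its log2 fold was 0.02 with an interval from -0.87 to 0.91 (SE 0.39, edgeR adjusted p = 0.975), so a change of nearly 1 log2 unit either way stayed within the interval.

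Cry2, on chromosome 2 from 92403646 to 92434043, was the steadiest member beside Per3. It had 21.0 and 22.9 CPM in the libraries labelled Nr1d1-/- and 21.5 and 22.1 CPM in those labelled Nr1d1+/+. Cry2 had the narrowest interval of the loop, -0.50 to 0.51, around an estimate of 0.01 log2 units (SE 0.22, edgeR adjusted p = 0.98). With library size as the only scaling it was -0.37, beside the shift of -0.38 in the median of all tested genes. An RNA on the opposite strand, D930015M05Rik, overlaps 295 bases or 4.67% of the Cry2 exons, and the sources used here do not say if reads were counted by strand. Per kilobase, Cry1 stood at 0.549 and 1.06 times Cry2 in the libraries labelled Nr1d1-/- and at 0.69 and 0.942 times in those labelled Nr1d1+/+. The value above 1 depends on the length used: with the longest transcript of each gene in place of all exons, the ratios were 0.381 and 0.737 in the libraries labelled Nr1d1-/- and 0.479 and 0.654 in those labelled Nr1d1+/+.

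Ciart, on chromosome 3 from 95878503 to 95882251, had the fewest counts of the loop and differed most between the replicates labelled Nr1d1-/-. It had 0 and 37 counts in the libraries labelled Nr1d1-/-, and 21 and 13 counts in those labelled Nr1d1+/+. This was 0 and 2.30 CPM against 0.994 and 0.622 CPM. With the count of 0 among 15905404 set at 3 counts (0.22 CPM), the fold of Nr1d1-/- replicate 2 over Nr1d1-/- replicate 1 was 10.4. This fold leaves out counting error in Nr1d1-/- replicate 2. The exact Poisson intervals lay apart, but ended at 0.27 CPM in Nr1d1-/- replicate 1 and began at 1.62 CPM in Nr1d1-/- replicate 2. Counting error thus allows a smaller fold than 10.4. Both libraries labelled Nr1d1+/+ lay between those labelled Nr1d1-/-. A log2 fold of 0.59 with an SE of 1.01 (interval -1.70 to 2.88, edgeR adjusted p = 0.68) therefore describes no common direction, and without Nr1d1-/- replicate 2 the sign was negative (edgeR adjusted p = 0.0577).

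Replicates with the same label differed by more than counting error for several members. Exact 95% Poisson intervals of the replicates lay apart for 4 of 10 members in the libraries labelled Nr1d1-/- (Arntl2, Per1, Cry1 and Ciart) and for 6 of 10 in those labelled Nr1d1+/+ (Arntl, Arntl2, Clock, Npas2, Per1 and Cry1). These counts were not made over all tested genes, so whether they are particular to the loop is not known. In the libraries labelled Nr1d1+/+, replicate 1 was the higher for Per1, Arntl2 and Nr1d1, and the lower for Arntl, Npas2, Clock and Cry1. In the libraries labelled Nr1d1-/-, replicate 1 was the higher for Per1 and Arntl2, and the lower for Cry1 and Ciart. The sources used here do not give the hour of collection, and its part in these differences and in the difference of Per2 was not tested.

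**Figure D4:**
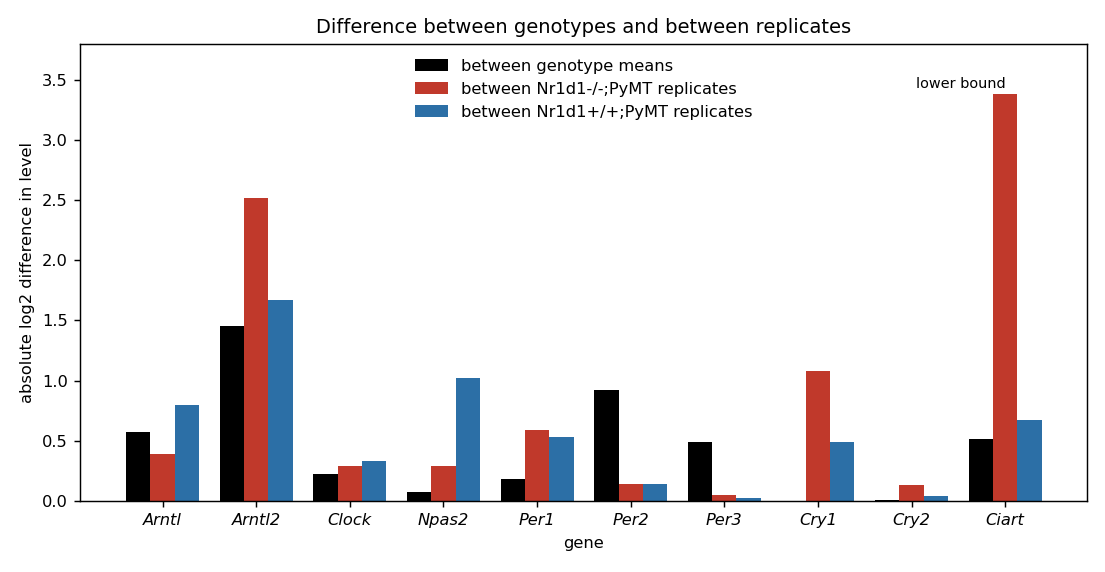
Absolute log2 difference in level for each core clock gene. Black bars are between genotype means, red bars between the replicates labelled Nr1d1-/-;PyMT and blue bars between those labelled Nr1d1+/+;PyMT. The red bar of Ciart, marked lower bound, sets the count of 0 at 3 counts but leaves out counting error in the other replicate. The black bar is the tallest for Per2 (0.92) and Per3 (0.49) and for no other member.

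Per kilobase of exon, Per1 was the most abundant transcript of the loop in all 4 libraries. It averaged 12.3 ± 3.49 CPM per kilobase in the libraries labelled Nr1d1-/- and 13.9 ± 3.53 in those labelled Nr1d1+/+ (SD, n = 2 each). Cry2 followed at 3.47 ± 0.216 and 3.45 ± 0.0665 CPM per kilobase. In the libraries labelled Nr1d1-/-, the order of means below these was Cry1 (2.83), Per2 (1.59), Clock (1.41), Arntl (0.867), Per3 (0.862), Npas2 (0.612), Ciart (0.508) and Arntl2 (0.257), all in CPM per kilobase. The neighbours Cry2 and Cry1, Per2 and Clock, Arntl and Per3, Npas2 and Ciart, and Ciart and Arntl2 overlapped there. In the libraries labelled Nr1d1+/+, it was Per2 (3.02), Cry1 (2.82), Clock (1.64), Per3 (1.21), Arntl2 (0.704), Npas2 (0.642), Arntl (0.586) and Ciart (0.357) in the same unit. Per2 and Cry1 overlapped there, as did each neighbouring pair from Arntl2 down to Ciart. Per2 ranked 5 and 4 of 10 in the libraries labelled Nr1d1-/- and 3 and 4 in those labelled Nr1d1+/+. These orders and overlaps hold for the length of all exons. With the longest transcript as length, Clock (1.99) and Arntl (1.63) had higher means than Per2 (1.6) in the libraries labelled Nr1d1-/-, and Cry2, at 5.27 and 5.76, no longer overlapped Cry1, at 2.01 and 4.24, which overlapped Clock. In the libraries labelled Nr1d1+/+, the mean of Cry1 (3.12) then lay above that of Per2 (3.04), that of Arntl (1.1) above that of Npas2 (0.726), and Per3 overlapped Arntl2.

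Genes that feed into or read out the loop were examined in 7 lists, which held 90 tested genes beyond the 10 members. Of these, 11 were higher and 37 lower in the libraries labelled Nr1d1-/-, beside 16.5% higher and 17.3% lower among all tested genes. Without each library in turn these counts were 6 and 24 (without Nr1d1+/+ replicate 1), 5 and 20 (Nr1d1+/+ replicate 2), 6 and 31 (Nr1d1-/- replicate 1) and 11 and 32 (Nr1d1-/- replicate 2), and 21 of the 48 called genes were called in each of these 4 fits. The share of all tested genes called was also lower in each of these 4 fits than in the fit of all libraries. With the GC and length trends removed 8 were higher and 28 lower, beside 12% higher and 10.7% lower among all tested genes. With and without that removal, 32 were called in the same direction.

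Among the receptors of the second loop, Nr1d2, which encodes REV-ERBβ, was lower and Rorb was higher, at 11.7 ± 1.71 against 37.2 ± 6.08 CPM and at 79.2 ± 38.1 against 13.5 ± 3.45 CPM (SD, n = 2 each, edgeR adjusted p = 0.0029 and 0.00244). Rora and Nr1d1 were not called (log2 folds -0.62 and -0.37). Of the 6 output factors, Bhlhe40, which encodes the E-box repressor DEC1, was lower at 27.0 ± 5.14 against 61.8 ± 3.99 CPM (edgeR adjusted p = 0.00489). Hlf, a PAR bZIP activator, was lower at 28.5 ± 2.12 against 45.3 ± 5.47 CPM (edgeR adjusted p = 0.0357), but not with the trends removed (log2 fold -0.21, edgeR adjusted p = 0.503) nor when either Nr1d1+/+ library or the first Nr1d1-/- library was left out (edgeR adjusted p = 0.177, 0.076 and 0.107). Dbp, Tef, Nfil3 and Bhlhe41 had log2 folds of 0.20, -0.67, -0.15 and -0.65 and were not called.

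Of 14 kinases and phosphatases that act on clock proteins, 9 were lower and 2 higher, with a median log2 fold of -0.76, and 5 were lower and 1 higher without Nr1d1+/+ replicate 1 and likewise without Nr1d1+/+ replicate 2. With the trends removed 4 were lower and 1 higher. Among all tested genes 17.3% were called lower and 16.5% higher, and with the trends removed 10.7% and 12%. Ppp1cb, a catalytic subunit of protein phosphatase 1, was lower at 188 ± 20.7 CPM in the libraries labelled Nr1d1-/- against 438 ± 31.3 CPM in those labelled Nr1d1+/+ (log2 fold -1.22, SE 0.18, edgeR adjusted p = 0.00282, and -0.64 and 0.0426 with the trends removed). Ppp1ca, another catalytic subunit of it, was higher at 401 ± 40.9 against 188 ± 3.10 CPM (log2 fold 1.09, SE 0.17, edgeR adjusted p = 0.00343, and 0.56 and 0.0476 with the trends removed). Prkaa2, a catalytic subunit of the energy-sensing kinase AMPK, which marks CRY1 for degradation, was lower at 5.54 ± 0.061 against 16.4 ± 0.98 CPM (log2 fold -1.56, edgeR adjusted p = 0.00522, and -0.98 and 0.0367 with the trends removed).

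Of 11 tested ubiquitin ligase and protease genes, 5 were lower and 2 higher, with a median log2 fold of 0.10 that turned to -0.29 with library size as the only scaling and to -0.79 without Nr1d1-/- replicate 1. Huwe1, a ubiquitin ligase, was lower at 72.1 ± 10.1 against 183 ± 19.6 CPM (log2 fold -1.34, SE 0.19, edgeR adjusted p = 0.00264). Ube3a, another, was higher at 227 ± 70.9 against 42.1 ± 1.43 CPM (log2 fold 2.43, SE 0.24, edgeR adjusted p = 0.00132). The lower count was 3 without Nr1d1+/+ replicate 2 and with the trends removed.

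Of 27 tested coactivators and corepressors of the clock, 11 were lower and 2 higher, with a median log2 fold of -0.44, and 5 were lower without Nr1d1+/+ replicate 2. Among all tested genes 17.3% were called lower and 16.5% higher. Kat2b and Ep300, acetyltransferases that assist CLOCK and BMAL1, were lower. Kat2b had 8.08 ± 0.19 against 36.5 ± 0.78 CPM, and Ep300 had 15.8 ± 0.20 against 56.2 ± 8.92 CPM (edgeR adjusted p = 0.00162 and 0.00207). Nono, a partner of PER proteins, was lower at 243 ± 20.2 against 529 ± 15.4 CPM (edgeR adjusted p = 0.00314). Ncor1, the corepressor that REV-ERBα recruits, was higher at 508 ± 180 against 222 ± 36.3 CPM (edgeR adjusted p = 0.00946), with a log2 fold of 1.19 that was 0.77 without Nr1d1-/- replicate 1.

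**Figure D5:**
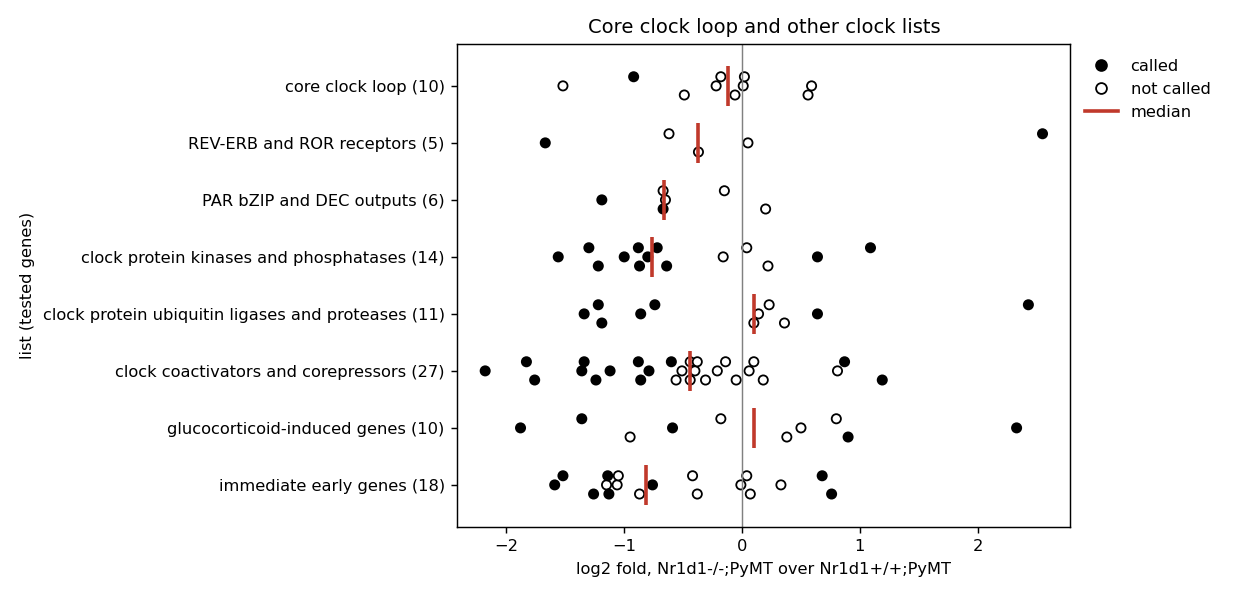
Log2 fold (Nr1d1-/-;PyMT over Nr1d1+/+;PyMT) of each tested gene in the core clock loop and in 7 other clock lists; filled points were called by edgeR, open points were not and red lines are medians. The core loop has 1 filled point and a median of -0.12, and the kinase and phosphatase list has 11 filled points and a median of -0.76. Among all tested genes, 33.9% were called.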

How the data were processed

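The authors deposited raw read counts per gene symbol for each of 4 libraries, and the submitters' processing notes name TopHat and the mm10 build. The sources used here name no counting tool and no strand setting. Each file held 23282 rows and 23238 symbols, and 35 symbols listed more than once were kept apart. Counts were scaled by TMM, filtered by edgeR's filterByExpr (minimum count 10) and tested by the quasi-likelihood test of edgeR 4.0.16 in R 4.3.3 without a replicate block, with Benjamini-Hochberg adjustment over 14801 genes. CPM uses TMM-scaled library sizes. Levels per kilobase use GENCODE exon unions. Poisson intervals (95%) and the floor of 3 counts cover counting error only. DESeq2 1.42.0, limma 3.58.1 (voom), other scalings, filters and thresholds, removal of GC and length trends, a replicate block and leaving out each library were alternatives. The edgeR fit, with and without removal of GC and length trends, was run on simulated data, and the other alternatives were not. The members and lists were chosen with earlier results of these data known. Named genes are all members, Nr1d1, the receptors and output factors (1 item is not reported here), and from other lists the called genes of lowest p, up to 3 per direction.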

Additional observations from a re-analysis of the deposited data

How the results depend on the processing

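Of 157 alternative log2 folds of the 10 members, 131 kept direction and side of the threshold. Per2 was called in 12 of 16. Members called lower numbered 2 with library size only, 0 with GC and length trends removed, 0 at an absolute log2 fold of at least 1, and 0 to 1 without 1 library, where the gene called without Nr1d1-/- replicate 1 was Arntl2. Among all genes, against 2446 higher and 2565 lower, library size only gave 1281 and 4410, trend removal gave 1567 lower, the fold threshold gave 1501 higher, and leaving out 1 library gave 1036 to 2358 higher and 1170 to 2401 lower. The other lists had 11 higher and 37 lower, against 5 higher with library size only, 5 and 23 at the fold threshold, and 5 to 11 and 20 to 32 without 1 library.

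Signs turned only for uncalled members. These were Cry1 (-0.36) and Cry2 (-0.37) with library size only, Cry1 (-0.01) and Cry2 (-0.02) without a filter, and Npas2 (0.03), Cry1 (-0.03) and Ciart (-1.31) with voom. Trend removal gave Clock 0.33, Npas2 0.06 and Cry2 -0.04. Without Nr1d1+/+ replicate 1, Per1 was 0.06, Cry1 -0.25 and Cry2 -0.06, and without Nr1d1+/+ replicate 2, Npas2 was 0.51. Without Nr1d1-/- replicate 1, Npas2 was 0.07, and without Nr1d1-/- replicate 2, Per1 was 0.07, Cry1 -0.65, Cry2 -0.07 and Ciart -6.92, a fitted value set by the prior count. Over the fits without 1 library, Npas2 ranged from -0.53 to 0.51, Per1 from -0.50 to 0.07 and Cry1 from -0.65 to 0.44. The cause was not tested.

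Replicate numbers were not shown to pair the libraries (correlation 0.026 across genes). With the replicate block, 2622 genes were higher and 2704 lower, Per2 remained called (edgeR adjusted p = 0.0288) and Cry1 was -0.05. The filter on a mean of at least 5 CPM left no value for Arntl2, Npas2 and Ciart. With the longest transcript as length, mean levels per kilobase over the 4 libraries were 1.37 for Arntl, 2.15 for Clock, 1.66 for Per3 and 5.50 for Cry2. With 2 libraries a label, Arntl, Arntl2, Npas2, Cry1 and Ciart had intervals wider than 1.5 log2 units.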

Other observations

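Genes that respond to the acute signals that also induce Per1 and Per2 were examined as values. Of 10 glucocorticoid-induced genes, Per1 included, 2 were higher and 3 lower in the libraries labelled Nr1d1-/-, beside 16.5% higher and 17.3% lower among all tested genes. Their median log2 fold was 0.10, and its sign depended on the libraries used. It was 0.18 without Nr1d1+/+ replicate 1 and -0.20 without Nr1d1+/+ replicate 2. It was -0.52 without Nr1d1-/- replicate 1 and 0.34 without Nr1d1-/- replicate 2. Zbtb16, a zinc finger repressor, averaged 44.3 ± 38.2 CPM against 8.76 ± 4.07 CPM (SD, n = 2 each), a log2 fold of 2.33 that was 0.97 without Nr1d1-/- replicate 1 (edgeR adjusted p = 0.101) and 1.89 without Nr1d1+/+ replicate 2 (edgeR adjusted p = 0.0635). Fkbp5, a chaperone of the glucocorticoid receptor, averaged 109 ± 33.7 against 58.6 ± 9.58 CPM (log2 fold 0.90), and was not called without Nr1d1+/+ replicate 1 or Nr1d1-/- replicate 1 (log2 folds 0.69 and 0.54, edgeR adjusted p = 0.121 and 0.111). Errfi1, an inhibitor of the EGF receptor, was lower at 26.3 ± 5.37 against 96.6 ± 38.8 CPM, and was called in each fit without 1 library.

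Of 18 immediate early genes, 6 were lower and 2 higher, beside 17.3% lower and 16.5% higher among all tested genes. Their median log2 fold was -0.81, beside -0.01 over all tested genes, and lay between -0.82 and -0.72 without each library in turn. With GC and length trends removed 8 were lower and 0 higher, beside 10.7% and 12% of all tested genes. Without Nr1d1+/+ replicate 1 fewer were called lower, at about the share of all tested genes in that fit. Jun and Fos, which together form the AP-1 factor, were lower at 36.5 ± 1.36 against 105 ± 1.74 CPM and at 18.1 ± 7.84 against 54.3 ± 8.94 CPM, and both were called in each fit without 1 library. The higher genes, Jund and Ier2, had log2 folds of 0.76 and 0.68, which turned to -0.30 and -0.08 once trends on GC content and length were removed.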
